A study of Rattus norvegicus with 8 samples.

Results

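The zinc finger protein genes described here are the probe sets, on 2 rat arrays called chip A and chip B, whose single annotated symbol starts with Zfp or Znf and a digit, or with Zbtb. The rule found 364 probe sets of 231 genes among 31142 probe sets, which carry 13810 single gene symbols in all. On chip A there were 160 probe sets of 130 genes and on chip B 204 probe sets of 142 genes, with 41 genes on both. Of the 231 genes, 32 are Zbtb genes and 199 are Zfp or Znf genes. The rule reads names only, so a few members do not encode zinc finger proteins. Zbtb8os and Zbtb11os1 are named for a zinc finger gene on the opposite strand, and the RefSeq table lists Zbtb11os1 as a long noncoding RNA and Zfp273l-ps1 as a pseudogene. 6 probe sets on chip B with several symbols, one of which would fit, were left out.

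The RNA came from PC12, a line derived from a rat adrenal medulla tumour that makes and stores catecholamines. Cells with forskolin, which activates adenylyl cyclase and so raises cyclic AMP, were compared with cells without it. Each chip had 2 arrays with forskolin (replicates 1 and 2) and 2 without it (replicates 1 and 2), 8 arrays in 4 groups. The sources used here do not give the dose, the time, the nature of the control or whether replicates were separate cultures. The p-values therefore reflect the spread among these arrays alone, and that spread may be technical.

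Zinc fingers are small folds in which cysteine and histidine residues hold a zinc ion. Most Zfp and Znf genes encode transcription factors with rows of such fingers that read DNA, and many of them carry a KRAB domain, which recruits the corepressor Trim28 and silences chromatin. Zbtb proteins join their fingers to a BTB domain, which pairs the proteins and binds corepressors of the Ncor and histone deacetylase kind. The Zfp36 family is different: its fingers bind AU-rich elements in messenger RNAs and speed their decay, and its genes are known to respond quickly to many stimuli.

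Most markers of these cells passed the brightness filter described next, and so did some markers of other cells. On chip A 8 of 10 PC12 markers passed it. The brightest probe sets of Th, Chgb and Phox2a lay at the 97.7th, 98.2nd and 99.0th percentile of brightness, whereas Dbh and Slc18a1 did not pass. Phox2a, a transcription factor of noradrenergic cells, also rose by 0.41 (log2; limma adjusted p = 0.000102). The filter was also passed by 3 of 5 fibroblast markers (the brightest at the 98.0th percentile), 2 of 4 glial markers (up to the 39.1st), 2 of 5 adrenal cortex markers (up to the 36.8th) and 1 of 3 of blood and endothelium (up to the 37.2nd). The brightest of them was Col3a1, a fibroblast collagen, with a change of 0.015 (log2), and no marker of other cells was called by limma. Their part in the results was not tested. Array medians ran from 8.15 to 8.17 (chip A) and from 6.77 to 6.79 (chip B) on the log2 scale. The chips were scaled separately, so medians and tests are given for each chip. Brightness also depends on the probes, so the level of a probe set does not rank genes by transcript number.

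Zinc finger probe sets were of middling brightness on chip A and rarely bright. Their median percentile was 48.0, and 23, 67, 52 and 18 of the 160 fell in the 4 equal brightness classes of the chip, from dim to bright. Only 2 of them (1.25%) reached the brightest 10% of chip A, against 10.6% of all probe sets with 1 symbol. On chip B the median percentile was 61.0, the 4 classes held 31, 44, 77 and 52, and 18 of 204 (8.82%) lay in the brightest 10%, against 15.5% of probe sets with 1 symbol. No test was made of the dimmest probe sets, those with a mean linear value below the 30th percentile of their chip. This left out 34 members on chip A (21.2%, against 26.8% of all probe sets with 1 symbol) and 36 on chip B (17.6%, against 21.5%). In all 126 probe sets of 102 genes were tested on chip A and 168 of 122 genes on chip B, together 195 genes.

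The brightest members included RNA-binding and cell division proteins as well as DNA-binding ones. On chip A the 5 brightest genes were Zfp36l2, Zfp330, which encodes a nucleolar protein, Zfp664, Zfp219 and Zfp260. Their mean levels over the 4 arrays ran from 10.32 for Zfp260 to 11.73 for Zfp36l2 (log2). On chip B they were Zfp771, Zfp106, which encodes an RNA-binding protein needed by motor neurons, Zfp207, whose product helps the checkpoint protein Bub3 load on kinetochores, Zfp410, an activator of the chromatin remodeller gene Chd4, and Zfp146. Their levels ran from 9.28 for Zfp146 to 10.15 for Zfp771. Of these 10 genes only Zfp36l2 was called. Zfp330 was level, with 10.63 and 10.65 without forskolin and 10.63 and 10.64 with it, and so was the brightest Zfp771 probe set, with 10.11 and 10.19 against 10.17 and 10.15. In both genes the groups overlapped. Zfp219 measured -0.094, Zfp146 0.0088, Zfp410 -0.083 and -0.14 on its probe sets, and the 3 of Zfp106 between -0.17 and -0.077 (log2).

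Among the 126 tested zinc finger probe sets of chip A, 3 rose and 2 fell with forskolin (limma, Benjamini-Hochberg adjusted p under 0.05, with the adjustment made across the whole chip). They belong to Zfp36, Zfp36l2 and Zfp597, which rose, and Zfp455 and Zbtb18, which fell. The 5 calls are 3.97% of the tested members, beside 3.30% of all tested probe sets and 3.24% of the others when these are weighted to the brightness of the members. The share of members called was thus near the background. The sizes were small, with 1.46-fold for Zfp36 as the largest on chip A, and only 3 members above 0.2 and 2 below -0.2 (log2).

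Zfp36, the tristetraprolin gene, read 8.33 and 8.50 without forskolin and 8.95 and 8.97 with it (log2). Both forskolin arrays lay well above both others. The mean rose from 8.42 ± 0.12 to 8.96 ± 0.02 (SD, n = 2), a change of 0.54 ± 0.06 (log2, SE; limma adjusted p = 0.000971). This call held under all 10 alternative settings, with changes of 0.46 to 0.62. It rests on the only Zfp36 probe set.

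Zfp36l2, its close relative, read 11.59 and 11.67 without forskolin and 11.83 and 11.82 with it on its brightest probe set. The groups did not overlap, and the change was 0.19 ± 0.04 (log2, SE, n = 2; limma adjusted p = 0.0238). The call was lost under 5 of 10 alternatives, among them the fits without forskolin replicate 1, forskolin replicate 2 or no forskolin replicate 1 (limma adjusted p = 0.0594 to 0.0874 over the 5). Its second tested probe set measured 0.24 ± 0.06 (log2, SE, n = 2; limma adjusted p = 0.0717), and the third, below the filter, differed by 0.019. Zfp36l1, the other family member on the chips, read 6.96 and 7.03 without forskolin and 7.15 and 7.11 with it. Its change of 0.14 had a 95% interval of 0.016 to 0.25 and was not called (limma adjusted p = 0.233). All 4 tested probe sets of the family, which belong to 3 genes, lay above 0, and 2 of them were called. Over all tested probe sets of chip A 3.30% were called and 55.0% lay below 0. The family probe sets had a median of 0.22 (log2). That of the tested Zbtb probe sets of chip A was -0.019 and that of the remaining Zfp and Znf probe sets -0.0018.

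**Figure D1:**
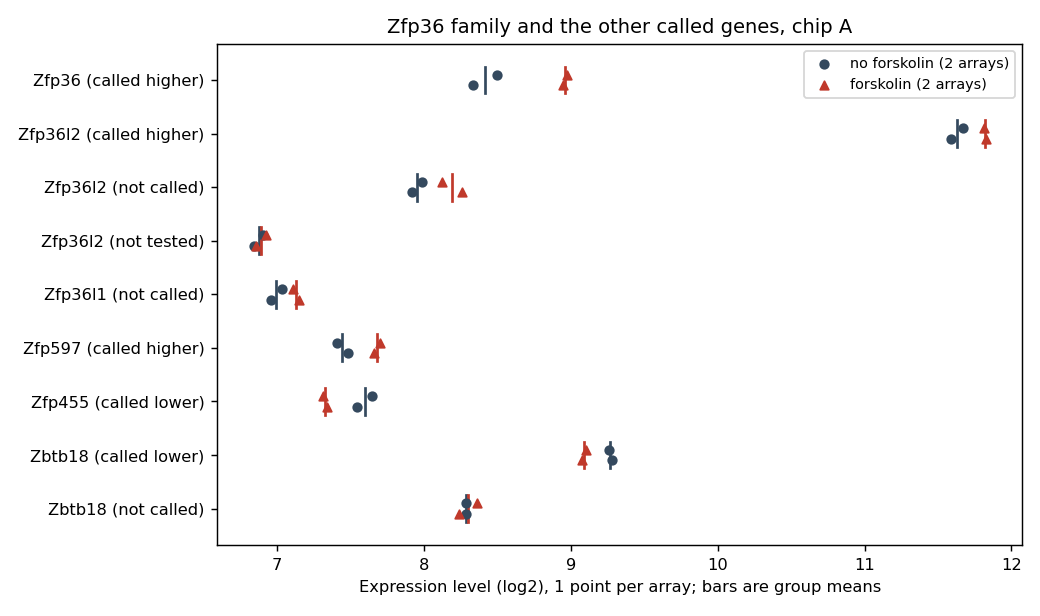
Expression level (log2, horizontal axis) on chip A of every probe set of the Zfp36 family and of the other genes with a call, 1 point per array, with forskolin as triangles, no forskolin as circles and group means as bars. The forskolin arrays of Zfp36 (8.95 and 8.97) sit clear of those without it (8.33 and 8.50), and the second Zbtb18 probe set shows overlapping groups.

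The sequences just before the start of Zfp36 and Zfp36l2 are shown because these related genes were called in the same direction. Each run holds the 250 bases before the annotated start, 5′ to 3′ on the gene's strand, from RefSeq (GRCr8), at chr1:92799109-92799358 on the minus strand for Zfp36 and chr6:16242372-16242621 on the plus strand for Zfp36l2. Capitals mark TGACG, the core of the cyclic AMP response element, looked for on both strands.
Zfp36: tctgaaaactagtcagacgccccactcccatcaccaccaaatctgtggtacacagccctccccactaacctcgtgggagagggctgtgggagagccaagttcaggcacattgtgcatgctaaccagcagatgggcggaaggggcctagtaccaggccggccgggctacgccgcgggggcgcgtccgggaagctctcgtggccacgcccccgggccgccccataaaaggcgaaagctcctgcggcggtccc
Zfp36l2: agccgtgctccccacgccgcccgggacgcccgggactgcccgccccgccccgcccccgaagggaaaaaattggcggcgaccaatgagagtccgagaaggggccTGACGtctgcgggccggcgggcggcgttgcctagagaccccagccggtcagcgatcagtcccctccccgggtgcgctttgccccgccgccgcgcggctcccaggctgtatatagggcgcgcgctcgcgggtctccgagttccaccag

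The Zfp36 window held no TGACG and the Zfp36l2 window held 1, which starts 147 bases before the start. TGACG stood in 2 of the 6 windows listed for the 5 called genes. The other was a window of Zbtb18, which fell, with the match 247 bases before the start. The same letters stand in 18.2% of 33469 promoter windows of this length and in 48 of 229 windows of member genes (21.0%). The full palindrome TGACGTCA, which contains TGACG on both strands, is in 1.59% of all windows and in 5 of the 229 (2.18%), one of them that of Zfp972, but in none of the 6 windows listed for the 5 called genes. A match is a string of letters, not a shown binding site.

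Of the other 3 called genes, Zfp597, whose human counterpart is imprinted, read 7.48 and 7.41 without forskolin and 7.66 and 7.70 with it. It rose by 0.24 ± 0.05 (log2, SE, n = 2; limma adjusted p = 0.0412). Zfp455 read 7.54 and 7.65 without forskolin and 7.34 and 7.31 with it. It fell by 0.27 ± 0.05 (log2, SE, n = 2; limma adjusted p = 0.0317). Zbtb18, a repressor of gene expression in developing neurons, read 9.28 and 9.26 without forskolin and 9.07 and 9.10 with it on its brighter probe set.

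That Zbtb18 probe set fell by 0.18 ± 0.04 (log2, SE, n = 2; limma adjusted p = 0.0492), while its other probe set measured 0.015 with overlapping groups. Over all tested probe sets of chip A, both forskolin arrays lay above both others in 20.4% and below them in 28.0%. In all 3 genes, too, the groups did not overlap on the called probe set, which a choice by small p favours. Their calls are less firm than that of Zfp36: Zfp597 and Zfp455 each lost it under 5 of 9 alternatives and Zbtb18 under 7 of 10, with limma adjusted p between 0.0540 and 0.166 where lost. Each was lost when either forskolin array was left out. Zfp597 and Zfp455 were also lost without no forskolin replicate 2, and Zbtb18 without either array of that group.

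Besides the second Zfp36l2 probe set, the 5 uncalled members with the smallest p on chip A were Zfp217, Zfp664, Znf740, Zfp691 and Zfp688, with limma adjusted p from 0.0836 to 0.111. Zfp217, whose product works with the CoREST and CtBP corepressors, read 9.61 and 9.70 without forskolin and 9.42 and 9.50 with it, a difference of -0.19. Zfp664 read 10.25 and 10.35 without forskolin and 10.47 on both arrays with it. These groups, too, did not overlap. Zfp691 and Zfp688 each measured -0.19 with the groups apart. Znf740 shows how far probe sets of 1 gene can part, since one measured -0.19 and the other 0.13, each with groups apart. Some of these became calls under another normalization. Quantile normalization called Zfp217, Zfp664 and the lower Znf740 probe set. Median centring called Zfp217, Zfp664 and the second Zfp36l2 probe set. Zfp691 and Zfp688 were called under neither.

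At the level of the whole family, chip A showed members above and below 0 in equal measure. The median change was -0.0016 (log2) with 64 of 126 below 0, beside -0.0082 over all tested probe sets and -0.00083 over the others weighted to the same brightness. The median size of a change, whatever its sign, was 0.072 for members and 0.050 for the brightness-weighted others. At an unadjusted p under 0.05, 15 members were higher (11.9%) and 17 lower (13.5%), beside 7.10% and 10.3% of all tested probe sets. Of the brightness-weighted others 7.53% were higher and 9.0% lower. Both forskolin arrays lay above both others in 34 members (27.0%, beside 20.4%) and below them in 40 (31.7%, beside 28.0%). Among the brightness-weighted others these shares were 23.1% and 24.5%.

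On chip B no zinc finger probe set was called by limma among 168, where 0.159% of all 10693 tested probe sets were. At an unadjusted p under 0.05, 1 member was higher (0.595%, beside 1.64% of all tested probe sets) and 17 were lower (10.1%, beside 3.33%). The median change was -0.059 (log2), with 117 of 168 below 0 (69.6%). Over all tested probe sets the median was -0.026 with 61.9% below 0, and over the others weighted to the same brightness -0.025 with 61.8%. Both forskolin arrays lay below both others in 51 members (30.4%, beside 22.2%) and above them in 13 (7.74%, beside 10.4%). No test was made of the family as a list.

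**Figure D2:**
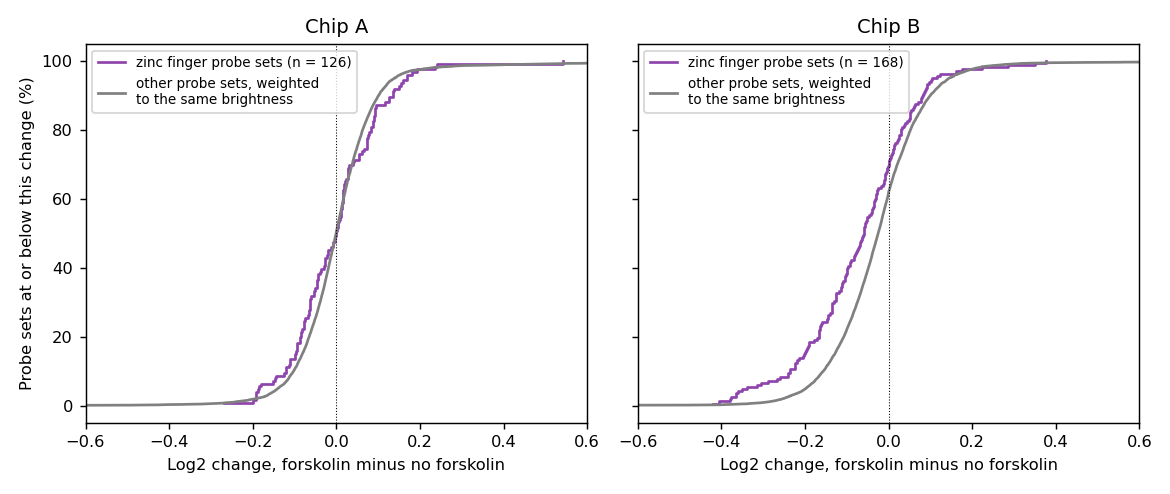
Cumulative share of probe sets (%, vertical axis) by log2 change, forskolin minus no forskolin (horizontal axis, drawn from -0.6 to 0.6), for zinc finger probe sets (purple) and for the other tested probe sets weighted to the same brightness (grey). On chip A the curves cross near 0, with medians of -0.0016 and -0.00083, and on chip B the purple curve lies to the left, with medians of -0.059 and -0.025.

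This lean toward lower values on chip B moved with each array without forskolin, and 2 such arrays cannot tell which of them is off. For the members, the array that stood highest was no forskolin replicate 2. Measured from the mean of each probe set over the 4 arrays, the members had a median of 0.074 on that array, of -0.017 on the other array without forskolin, and of -0.022 and -0.035 on forskolin replicates 1 and 2. The other tested probe sets had 0.024 there and 0.0015, -0.0062 and -0.021 on the remaining arrays in the same order. That array was the highest of the 4 for 94 of 168 members (56.0%), against 38.5% of the others, and for 13 of the 17 members lower at an unadjusted p under 0.05.

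Without no forskolin replicate 2 the median of the members was -0.025 with 54.8% below 0, close to the -0.013 and 54.5% of all tested probe sets, and 7 members were lower and 8 higher at an unadjusted p under 0.05. Without no forskolin replicate 1 the median was -0.10 and limma called 6 members lower, namely Zfp322a, Zfp61, Zfp654, Zfp68, Zfp763 and Zfp790. The median over all tested probe sets was then -0.037, and 0.533% of them were called lower. Chip A had no like array, the medians of the members there running from -0.021 to 0.019.

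**Figure D3:**
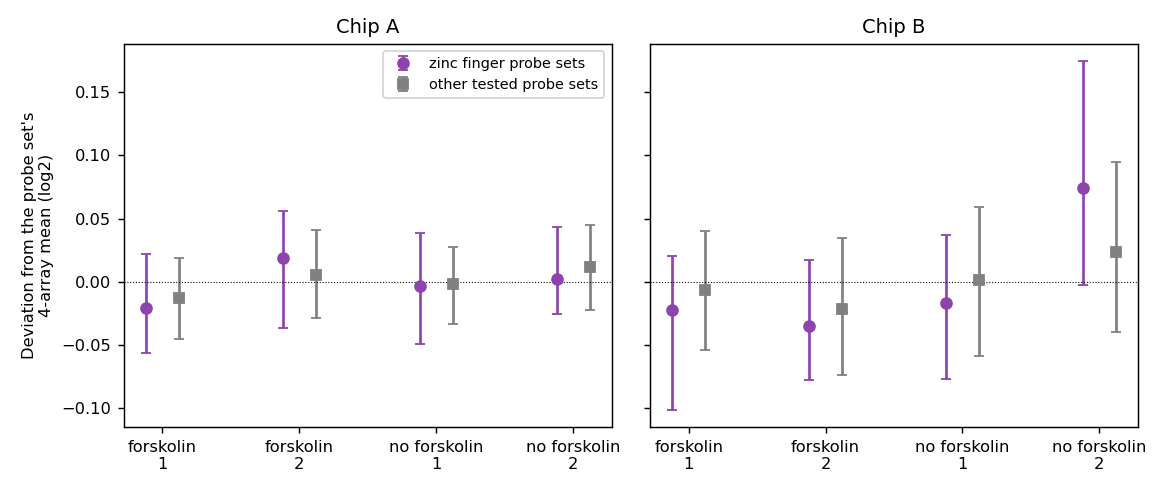
Deviation of each array from the probe set's mean over the 4 arrays of its chip (log2, vertical axis), as medians with bars from the lower to the upper quartile, for zinc finger probe sets (purple circles) and other tested probe sets (grey squares). On chip B the members stand at 0.074 on no forskolin replicate 2, against 0.024 for the others.

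The 10 members with the smallest p on chip B all had lower levels with forskolin, none called. Zfp84 read 7.09 and 7.05 without forskolin and 6.73 and 6.58 with it, a difference of -0.42 with a 95% interval of -0.62 to -0.22 (limma adjusted p = 0.373). Its other tested probe sets measured -0.028 and -0.15. Zfp136 read 6.92 and 6.99 without forskolin and 6.61 and 6.60 with it, and Zfp202, whose human counterpart represses genes of lipid metabolism, 8.54 and 8.67 against 8.24 and 8.25. In these 3 genes, as in all 10, the lower array without forskolin was still above both forskolin arrays. The choice by small p favours this, and it held for 22.2% of all tested probe sets of chip B.

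Zfp790 read 8.74 and 8.93 without forskolin and 8.49 and 8.43 with it. Zbtb1, which serves lymphocyte development, measured -0.30. Zfp972 measured -0.38 (-0.23 without no forskolin replicate 2) and, on its second probe set, -0.11. Zfp143, which drives transcription of small nuclear RNA genes and many promoters, read 7.92 and 7.91 without forskolin and 7.70 and 7.65 with it, the arrays of each group lying close together, and its second probe set measured -0.10. Zfp322a read 6.80 and 7.22 without forskolin against 6.58 and 6.63, a difference of -0.41 that was -0.19 without no forskolin replicate 2. Its second probe set measured -0.17, and 0.056 without that array. Without no forskolin replicate 1 the 2 Zfp322a values were -0.62 and -0.40. Zfp317 measured -0.22 and Zfp24, a factor needed for myelination, -0.34 on one probe set and -0.14 and -0.034 on the others. Without no forskolin replicate 2 the first of these Zfp24 values was -0.19 and the second -0.011. The second was -0.28 without no forskolin replicate 1, and -0.055 and -0.23 without forskolin replicate 1 or 2. The probe sets named first for the other 7 genes moved by less than 1.5 times when any 1 array was left out. The adjusted p of these 10 genes lay between 0.373 and 0.975 (limma).

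**Figure D4:**
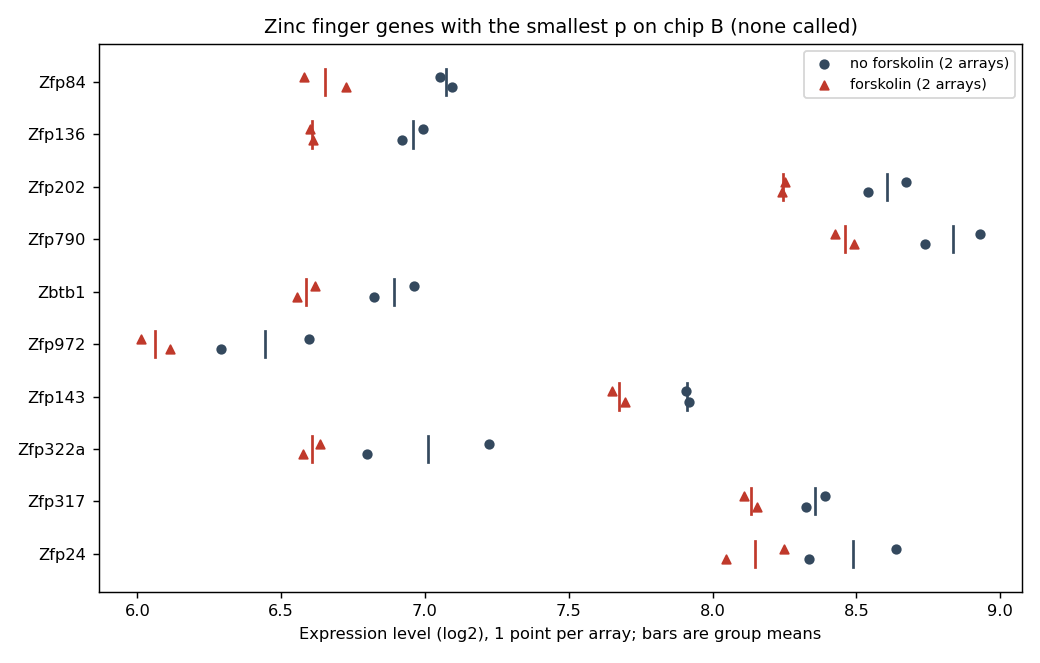
Expression level (log2, horizontal axis) on chip B of the 10 zinc finger genes with the smallest p, 1 point per array, with forskolin as triangles, no forskolin as circles and group means as bars. In each gene both forskolin arrays lie below both others, as for Zfp84 with 6.73 and 6.58 against 7.09 and 7.05, and for Zfp322a the circles stand far apart at 6.80 and 7.22.

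Zfp503, a repressor of the Nolz and Nlz family, was higher with forskolin on all 3 tested probe sets without a call. It measured 0.12 on chip A (limma adjusted p = 0.223) and 0.35 and 0.38 on chip B (0.977 and 0.975), where its forskolin arrays read 9.22 and 9.60 on the brighter probe set against 8.91 and 9.21. Without no forskolin replicate 1 both chip B values were 0.20. The value of 0.35 also moved with the forskolin arrays, to 0.54 without replicate 1 and 0.16 without replicate 2. Its relative Zfp703 measured 0.088 on chip A. The intervals of the 2 chip B values ran from -0.0036 to 0.70 and from 0.052 to 0.70.

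Of the transcription factors chosen as a panel for their known roles, Zfp148 and Zfp281 bind GC-rich promoters. Zfp148 measured -0.0018 on chip A and -0.22 on chip B, where it was -0.035 without no forskolin replicate 2 and -0.40 without no forskolin replicate 1. Zfp281 measured 0.22 on chip B, with 0.42 and 0.025 in the same fits. These values moved with single arrays. Zfp423, a partner of Ebf and Smad factors, gave 4 probe sets from -0.17 to 0.16, of both signs. Zfp521 lay below the filter. Zfp260 measured 0.022 and -0.045, Zfp644 from -0.069 to 0.070, and Zfp354a, a KRAB repressor first described in kidney, -0.045. None of the genes in this paragraph was called by limma.

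Among the members with other functions, Zfp622, which helps to mature the large ribosomal subunit, measured -0.12 (limma adjusted p = 0.221), and Zfp598, a ubiquitin ligase that senses collided ribosomes, 0.065. Zfp91, a ubiquitin ligase, had 8 probe sets, of which 7 were tested. Those ranged from -0.056 to 0.093 with no call. Zfp207 differed between its probe sets. The one on chip A, below the filter, read 7.02 and 7.15 without forskolin and 6.49 and 6.63 with it, a difference of -0.52, and it was called lower when no filter was used (as was no other member below the filter on chip A). Zfp867 was the only other member below the filter with a difference of over 0.5 (log2), with 5.93 and 6.42 without forskolin and 5.53 and 5.74 with it on chip B. The bright Zfp207 probe set on chip B measured 0.18 with a 95% interval of -0.063 to 0.42, and between 0.076 and 0.28 when 1 array was left out.

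Chip A had 17 tested Zbtb probe sets and chip B 22, and limma called only 1 of the 2 Zbtb18 probe sets. Over all tested probe sets 3.30% were called on chip A and 0.159% on chip B, so 1 call does not set the class apart. Zbtb7a, a repressor with roles in blood cell fate, measured -0.019 on chip A and from 0.025 to 0.10 on chip B, where the highest value was -0.050 without no forskolin replicate 1. Zbtb17, the Myc partner Miz-1, measured -0.062, Zbtb2 between -0.068 and 0.14, and Zbtb10 0.073. Zbtb33 (Kaiso) and Zbtb38, which bind methylated DNA, measured 0.091 and 0.028. Zbtb20 measured 0.033 on its tested probe set and Zbtb11 -0.13, which was 0.061 without no forskolin replicate 2. The median over the Zbtb probe sets was -0.019 on chip A and -0.041 on chip B.

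Several probe sets of 1 gene often parted in sign. Of 17 genes with 2 or more tested probe sets on chip A, 4 had all above 0, 2 all below 0 and 11 had both signs. Of 36 such genes on chip B the numbers were 4, 18 and 14. Of 29 genes tested on both chips, averaged over the probe sets of each chip, 10 were below 0 on both, 5 above 0 on both and 14 had opposite signs. Probe sets that both chips carry exist for 2 members: that of Zfp644 measured 0.041 on chip A and 0.070 on chip B, and that of Zfp592 0.078 and -0.055. Within a gene the log2 changes spanned a median of 0.12 (chip A) and 0.10 (chip B). For 15 member probe sets the name carries a suffix of arrays that can match more than 1 transcript, as for Zfp91 and Zfp574.

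Many zinc finger genes are known to lie in clusters on chromosomes. Of 229 member genes found in the table of RefSeq genes (GRCr8), 93 had another gene of such a name as a direct neighbour, and the same was true of 227 of all 458 genes so named. On chip A the tested probe sets of genes with such a neighbour had a median of -0.041 (25 of 40 below 0) and those without one 0.0080 (39 of 86). On chip B the medians were -0.037 (47 of 67 below 0) and -0.060 (70 of 101). The difference between the groups was not tested.

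Genes of known partners were counted once each, by their brightest tested probe set on chip A, or on chip B where chip A had none. In these lists and the ones below, the chip B counts thus hold only genes without a tested probe set on chip A. The counts are to be read beside the shares of all tested probe sets. On chip A 3.30% were called, and 7.10% were higher and 10.3% lower at an unadjusted p under 0.05 (limma). On chip B these shares were 0.159%, 1.64% and 3.33%. Of 14 tested KRAB cofactors, heterochromatin proteins and histone methyltransferases on chip A, limma called none, and 1 was lower and none higher at an unadjusted p under 0.05, with a median of -0.023. The 4 on chip B gave no call and none at that p, with a median of -0.079. The smallest p belonged to the methyltransferase gene Ehmt1 (-0.14), then Smarcad1 (0.10) and Cbx5 (-0.12). Of 15 tested BTB corepressor genes on chip A limma called none, 2 were lower and none higher at an unadjusted p under 0.05, and the median was 0.0081. The 3 on chip B gave none at either threshold, with a median of -0.049. These counts are too small to set the lists apart from all probe sets. Hdac2 measured -0.11, Tbl1x -0.10 and Sin3b -0.070.

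Of 20 tested genes on chip A that act with Zfp36 in messenger RNA decay, or bind the same elements, 2 were called higher and none lower. Of all tested probe sets 3.30% were called. At an unadjusted p under 0.05 (limma), 2 genes of the list were higher and 2 lower. None of the 3 on chip B was called by limma or lay at an unadjusted p under 0.05. Elavl4, whose product HuD binds AU-rich elements and stabilises messenger RNAs in neurons, rose by 0.27 ± 0.05 (log2, SE, n = 2; limma adjusted p = 0.0326). Mapkapk2, the kinase that phosphorylates Zfp36, rose by 0.21 ± 0.04 (log2, SE, n = 2; limma adjusted p = 0.0359). Their calls were lost under 5 and 4 of 10 alternatives, with limma adjusted p up to 0.108 and 0.138. Leaving out forskolin replicate 2, or no forskolin replicate 1, ended both calls, and the Elavl4 call also ended without forskolin replicate 1. The gene with the next smallest p, Cnot9, which encodes a subunit of the CCR4-NOT deadenylase complex, measured -0.12, uncalled, and the median of the list was -0.014 on chip A and 0.067 on chip B.

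Of 24 tested zinc finger factors with other names on chip A, 1 rose and none fell, a share near the 3.30% of all tested probe sets. At an unadjusted p under 0.05 (limma), 3 were higher and 3 lower. None of the 15 on chip B was called by limma or lay at an unadjusted p under 0.05. Hic2, which encodes a BTB zinc finger repressor, rose by 0.41 ± 0.05 (log2, SE, n = 2; limma adjusted p = 0.00381), a call held under all 9 alternatives in which it was tested. Zfpm1, a cofactor of GATA factors, measured 0.23 (limma adjusted p = 0.0515), and Patz1 -0.18 (0.0547) on its brighter probe set and 0.073 on the other. The list had a median log2 change of 0.015 (chip A) and -0.018 (chip B).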

How the data were processed

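Total RNA of PC12 cells was measured on 2 arrays (chips A and B) with 2 arrays per group, grouped by the labels. The authors deposited 1 log2 value for each probe set on each array. The log base was inferred from their range, and the sources used here do not give the background correction, probe summary or scaling. No detection calls were used. No pseudocount was added. A filter on the mean linear value, set at the 30th percentile, kept 11106 of 15866 probe sets (chip A) and 10693 of 15276 (chip B).

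Symbols came from GEO's platform annotation, updated by gene number to RefSeq (GRCr8), which matched 159 of 160 and 199 of 204 member probe sets. Each chip was fitted on its own with limma 3.58.1 in R 4.3.3 (lmFit, eBayes with an intensity trend, two-sided, Benjamini-Hochberg over all tested probe sets). The median standard error of a member's log2 change was 0.048 on chip A and 0.092 on chip B. This precision is limited by the number of arrays. For the comparison at like brightness, tested probe sets were split into 10 equal bins and the others were weighted to the members' numbers per bin. The fit was also run on simulated data with independent noise on each array and added changes larger than most of those of the members. That run does not test it on small changes or on a shift of a whole array.

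The members and lists were chosen with earlier results of these data known. The named genes are every called member, the uncalled ones with the smallest p up to 10 per chip, the 5 brightest per chip, a fixed panel (25 of 28 symbols found) and up to 3 genes of each list with the smallest p. Genes named otherwise (those that illustrate a suffix or a rule, Zfp592, Zfp867 and the genes called only when 1 array was left out) were chosen after their values were seen. Alternatives were quantile normalization, median centring, other filters, eBayes without a trend, a replicate block and leaving out each array.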

Additional observations from a re-analysis of the deposited data

How the results depend on the processing

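The counts of called members on chip A rest on few probe sets and moved with most settings. From 3 higher and 2 lower, they became 4 higher and 4 lower under quantile normalization and 5 and 4 with median centring. They were 2 and 1 with no filter, with a filter at the 50th percentile and by eBayes without a trend, but for different genes. The gene called lower was Zfp207 with no filter, Zbtb18 with the 50th percentile filter and Zfp455 without a trend. Those called higher were Zfp36 and Zfp36l2 under both filters, and Zfp36 and Zfp597 without a trend. Calls over all tested probe sets of chip A moved too, from 226 higher and 140 lower. Quantile normalization gave 282 and 190 there, and median centring 300 and 277. With no filter they were 218 and 101 (of 15866), and with the 50th percentile filter 194 and 115 (of 7933). By eBayes without a trend they were 213 and 117. With the replicate number as a block 1 member was higher and 0 were lower, and 159 and 46 of all tested probe sets. The numbers were not taken to pair the arrays, since deviations of same-numbered arrays correlated at only 0.0034 on chip A and 0.20 on chip B, with 2 pairs each. Leaving out 1 array gave 1 to 4 higher and 0 to 3 lower. Zfp36 was called under every one of these settings. The median of the members on chip A lay between -0.029 (without forskolin replicate 2) and 0.018 when 1 array was left out, so it has no settled sign. On chip B leaving out 1 array gave 0 called higher each time and 0 to 6 lower, with 6 without no forskolin replicate 1, and a median from -0.10 to -0.025. The remaining settings called 0 members on chip B. Quantile normalization moved the median of all tested probe sets there from -0.026 to 0.00037 and that of the members to -0.031, and median centring to -0.0045 and -0.038. Of 800 values of the 82 named member probe sets under alternatives, 726 kept their call and sign, 22 lost a call, 12 gained one, and 40 changed sign without a call. Nearly all of the 726 are values of probe sets without a call in the main fit that stayed uncalled, so they do not measure how firm the calls were. The 22 lost calls belong to Zfp36l2, Zfp597, Zfp455 and Zbtb18, and Zfp36 lost none. With 2 arrays per group and a median standard error of 0.092 on chip B, small changes were not detectable there.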
